A study of Anopheles gambiae with 6 samples.

Results

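The 151 probe sets described here had a clear signal in the 10.5 h embryo of the malaria mosquito Anopheles gambiae and a value at least 2-fold higher in its serosa. They were taken from the 16884 Anopheles probe sets of the array by 2 conditions. The value had to be 7.0 or more on all 6 arrays, which 1858 probe sets met, and the mean of the serosa arrays minus the mean of the embryo arrays had to be 1.0 or more. All values are log2 expression values from the robust multi-array average (RMA), so a difference of 1.0 is 2-fold. The 151 members were thus selected on the level and on the serosa minus embryo difference themselves, so their differences are given as a description, with no test.

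The serosa, in 3 preparations, was set against the embryo, in 3 preparations. Both came from formaldehyde-fixed eggs of the Kisumu strain, 10.5 h old. The serosal RNA came from the eggshells that remained after embryos had been removed by hand, and the embryo RNA came from those dissected embryos. Each preparation was hybridized to its own array, and the labels call the 3 arrays of a group biological replicates without saying how many eggs went into each. A preparation of shells holds whatever tissue stayed on them, and a preparation of embryos holds any serosa that stayed with them. Neither kind of carry-over was tested. In such bulk samples fewer cells of a type and less RNA per cell cannot be told apart.

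The serosa is an epithelium that leaves the embryo proper early in insect development and closes around it and the yolk. In mosquitoes it secretes a cuticle that contains chitin and lies beneath the outer eggshell, and this cuticle protects the egg against drying. Its cells do not contribute to the larva. An array probe set is a group of short probes against 1 transcript sequence, and the IDs on this array give a chromosome arm, a number, a second number after a point, and often a class, CDS for coding sequence or UTR for untranslated region. A suffix _a_ marks, in Affymetrix naming, probes shared by transcripts of 1 gene, and _s_ marks probes shared by transcripts of different genes. No member ID was paired with a gene in the sources used here (0 of 151 matched a table of 15165 RefSeq genes), so the members are called by their IDs, and the serosa and embryo labels could not be checked against marker genes.

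The 7.0 limit lay above the 95th percentile of the 290 probe sets with IDs of human arrays, which was 6.32 to 6.47 on the serosa arrays and 6.10 to 6.29 on the embryo arrays. Array maxima were 14.3 to 15.2. The median serosa minus embryo difference was 0.01 over all Anopheles probe sets and -0.38 over the 1858 at 7.0 or more, so most RNAs of that level were lower in serosa.

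Members made up 8.13% of the 1858 probe sets at this level, while 327 (17.6%) were at least 2-fold lower in serosa. Across the array 535 Anopheles probe sets (3.17%) had a serosa minus embryo difference of 1.0 or more, and 28.2% of them were members. Of the 384 others, 334 were under 7.0 on every embryo array. The level condition on the serosa arrays removed no member: with the limit applied to the embryo arrays alone, the same 151 probe sets were chosen. It did remove any probe set that fell under 7.0 on a serosa array. The 327 leave those out, so 8.13% and 17.6% are not shares of a like kind.

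The difference spanned a wide range within the set. Its median over the members was 2.02, or 4.05-fold, with quartiles of 1.41 and 3.10, and the extremes were 1.01 (2.01-fold) and 4.78 (27.5-fold). A difference of 2 or more was found in 76 members, of 3 or more in 39 and of 4 or more in 19, while 45 were under 1.5. The median level of the members was 10.9 in serosa and 8.56 in embryo.

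**Figure D1:**
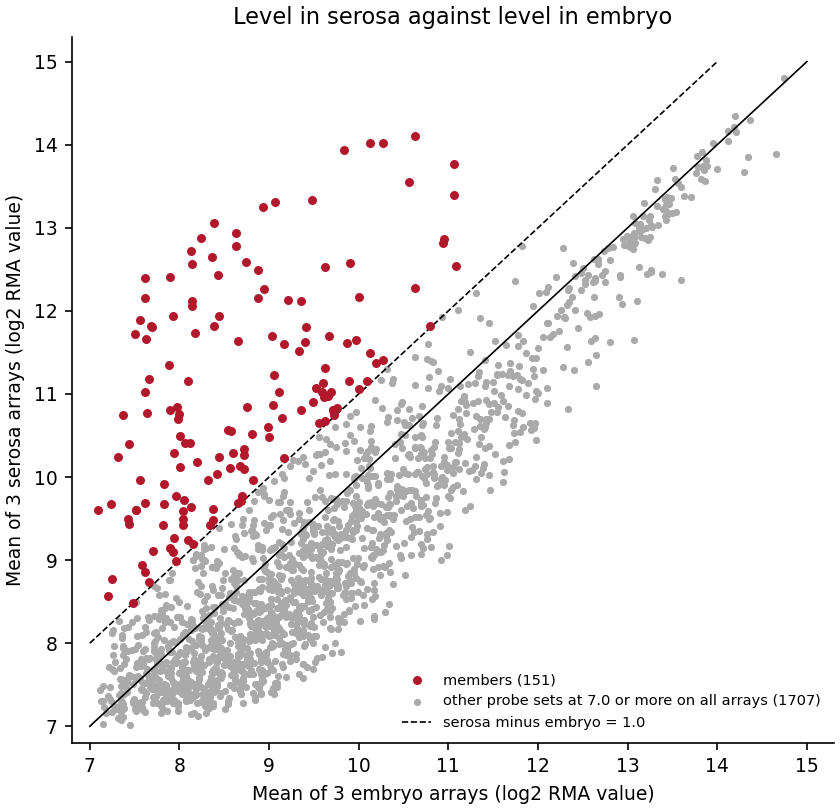
Mean log2 RMA value over the 3 serosa arrays (y axis) against the mean over the 3 embryo arrays (x axis) for the 1858 Anopheles probe sets at 7.0 or more on all 6 arrays. The solid line marks equal levels and the dashed line a difference of 1.0. The 151 members, in red, lie above the dashed line by construction and end at an embryo mean of 11.1.

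Among the probe sets that met the level limit on all arrays, members were a smaller share at higher embryo levels. They were 44 of 281 probe sets (15.7%) with an embryo mean under 8, 54 of 517 (10.4%) from 8 to 9, 36 of 498 (7.23%) from 9 to 10, and 17 of 562 (3.02%) at 10 or more. Their median difference was 2.42 in the lowest of these classes, then 1.99, 1.69 and 1.88. The largest difference in each class was 4.78, 4.67, 4.24 and 3.89 in the same order. The level limit also held on the serosa arrays, so probe sets that fell under it in serosa were left out. At a low embryo level a smaller fall is enough for this, so the shares of the classes are not of a like kind. A higher embryo level also leaves less room for a difference under the array maxima given above. The part of these limits in the trend was not tested.

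The members with the largest differences measured 7 to 9 in embryo and 11 to 14 in serosa. Ag.3R.570.1_CDS_a_at had values of 12.69, 13.03 and 11.47 on the serosa arrays of replicates 1 to 3, against 7.18, 8.0 and 7.66 on the embryo arrays, a difference of 4.78. Ag.2R.442.1_CDS_s_at measured 12.80, 14.04 and 12.35 in serosa and 7.51, 8.88 and 8.77 in embryo, a difference of 4.67. In both, every serosa array exceeded every embryo array by more than 3 log2 units, and serosa replicate 3 was the lowest serosa array.

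Ag.2R.677.0_CDS_at had a different spread, with 13.01, 12.83 and 12.79 in serosa against 7.88, 7.66 and 9.18 in embryo. Its serosa values lay close together (12.88 ± 0.12, SD, n = 3), its embryo values did not (8.24 ± 0.82, n = 3), and the difference was 4.63. Ag.3L.2281.0_at, with 13.14, 13.19 and 11.85 in serosa and 8.25, 8.23 and 7.92 in embryo, differed by 4.59. Here the embryo arrays were tight and serosa replicate 3 stood apart below the other serosa arrays. Ag.3L.798.0_CDS_at measured 11.98, 12.96 and 11.53 in serosa and 7.17, 7.80 and 7.86 in embryo, a difference of 4.54. For Ag.X.460.0_CDS_at the serosa arrays gave 12.67, 12.69 and 11.86 and the embryo arrays 7.58, 8.0 and 8.12, a difference of 4.51. The groups were far apart in all 6 of these probe sets, with the lowest serosa value 3.47 to 3.74 above the highest embryo value.

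The 4 members with the highest embryo means had differences between 1.45 and 2.70. Ag.3L.2135.1_a_at measured 12.60, 13.28 and 11.72 in serosa and 10.78, 11.20 and 11.27 in embryo, a difference of 1.45. Ag.X.1156.0_at, at 13.60, 13.89 and 12.70 in serosa against 11.07, 11.17 and 10.96 in embryo, differed by 2.33. The groups stayed apart in both, by 0.45 and 1.53 between the nearest arrays. Ag.2R.442.0_UTR_at had 13.56, 14.65 and 13.11 in serosa and 10.42, 12.10 and 10.67 in embryo, so that replicate 2 was the highest array of each group, and the difference was 2.70. Ag.2R.322.0_UTR_at measured 13.11, 13.29 and 12.18 in serosa and 10.99, 11.02 and 10.83 in embryo, a difference of 1.92.

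**Figure D2:**
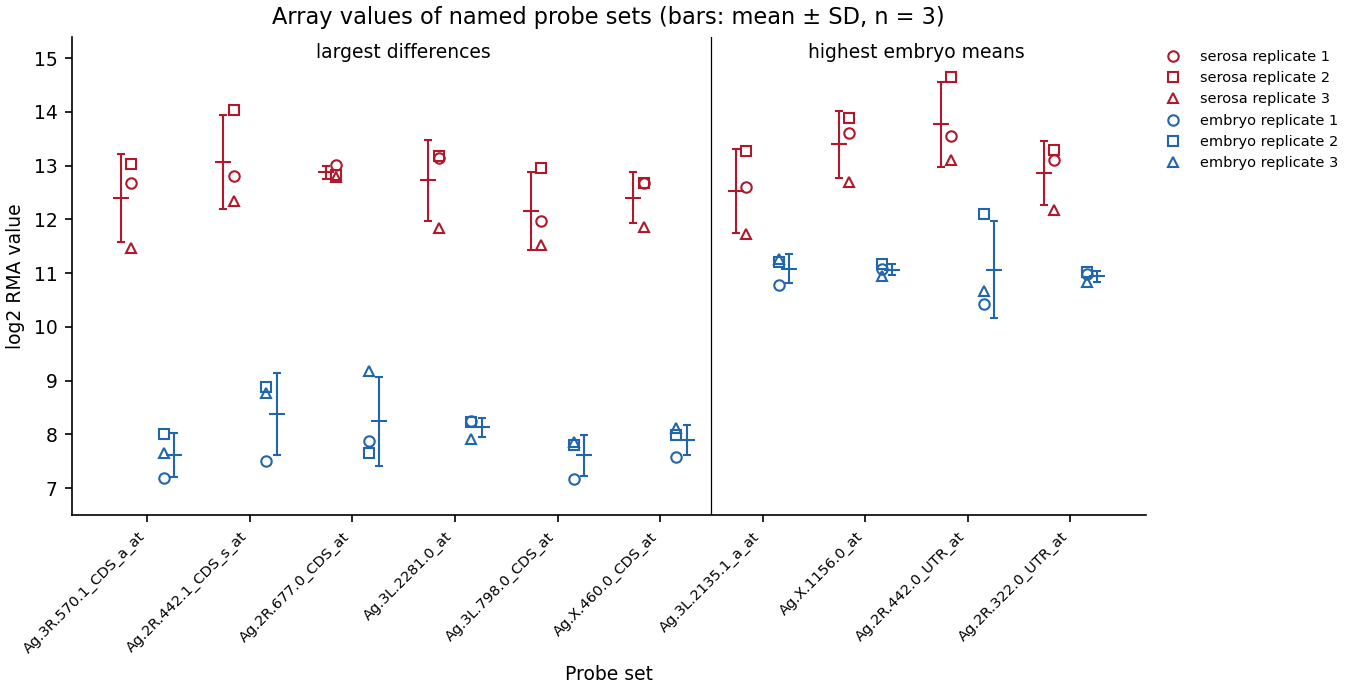
Log2 RMA values (y axis) of the 6 members with the largest difference and the 4 with the highest embryo mean (x axis, by probe set ID), serosa arrays in red and embryo arrays in blue, with a symbol per replicate and bars for mean ± SD (n = 3). Serosa and embryo values do not overlap in any of the 10, and serosa replicate 3 is the lowest serosa array in each.

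Of the members, 3 with serosa means above 14 are added here, chosen after their values were seen. Ag.2R.441.1_UTR_s_at averaged 14.11 ± 0.58 in serosa and 10.63 ± 0.82 in embryo (SD, n = 3 each). Ag.2R.461.0_UTR_a_at averaged 14.03 ± 0.67 in serosa and 10.27 ± 0.23 in embryo, and Ag.UNKN.1342.0_CDS_at, whose ID names no arm, averaged 14.02 ± 0.72 and 10.13 ± 0.57 in the same order.

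At the limits of the rule the values were continuous. The smallest differences among members were 1.01 for Ag.2R.4634.0_at, 1.02 for Ag.3L.212.0_CDS_a_at and 1.02 for Ag.3L.262.0_UTR_a_at. Just outside were Ag.2L.2953.0_at, which averaged 11.93 ± 0.47 in serosa and 10.93 ± 0.15 in embryo and missed with a difference of 0.999986, and Ag.3L.202.1_UTR_a_at, with 0.98. The level limit excluded Ag.3R.2923.0_at (difference 2.98) by a lowest array of 6.99 and Ag.2R.550.0_CDS_a_at (difference 2.97) by a lowest array of 6.97.

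In 143 of the 151 members the lowest serosa array lay above the highest embryo array. The same held for 13.2% of all Anopheles probe sets, and since the rule used this contrast, nothing is read from the count. A limma fit with Benjamini-Hochberg adjustment over all 16884 probe sets called 124 of the members higher in serosa at an adjusted p under 0.05, against 3.61% of all probe sets, again on the contrast that chose them. With the replicate number as a block the fit called 137 members, against 4.44% of all probe sets. The number called was 75 without embryo replicate 2, 75 without embryo replicate 3 and 78 without serosa replicate 1, beside 1.85%, 1.92% and 2.38% of all probe sets in the same order. The 8 members with overlapping groups had differences of at most 1.503. In the widest overlap, Ag.2L.601.1_a_at had 8.98, 9.99 and 8.62 in serosa and 7.74, 7.85 and 8.86 in embryo. In Ag.2R.360.0_UTR_s_at, with 11.62, 12.19 and 10.42 in serosa and 10.35, 10.56 and 9.92 in embryo, serosa replicate 3 lay within the embryo range.

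The serosa arrays differed among themselves more than the embryo arrays did. The median SD between replicates of the members was 0.64 in serosa and 0.31 in embryo, compared with 0.30 and 0.20, in the same order, over the 1707 other probe sets at 7.0 or more. Serosa exceeded embryo in SD in 82.8% of members and in 67.0% of the others. The largest serosal spread was in Ag.2R.4812.0_at, with 11.24, 12.14 and 9.15 in serosa and 8.02, 7.95 and 7.93 in embryo. Ag.2R.1206.0_CDS_at followed with 9.95, 12.06 and 9.18 in serosa and 7.12, 8.03 and 7.16 in embryo. Both were highest on serosa replicate 2 and lowest on serosa replicate 3, and neither overlapped between the groups.

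That order of the serosa arrays held across most of the set. The median of the members was 11.07, 11.53 and 10.22 on serosa replicates 1, 2 and 3, against 8.42, 8.60 and 8.77 on embryo replicates 1, 2 and 3. Serosa replicate 2 was the highest serosa array in 127 members (84.1%) and serosa replicate 3 the lowest in 138 (91.4%). Among the other 1707 probe sets these shares were 47.2% and 45.3%. Measured from the mean of the embryo arrays, the members were higher by a median of 2.19, 2.62 and 1.29 on serosa replicates 1, 2 and 3. A difference of 1.0 or more from that mean was found in 145, 146 and 94 members on these arrays, beside 3.26%, 4.74% and 2.38% of all Anopheles probe sets.

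The 327 probe sets that were at least 2-fold lower in serosa were ordered the opposite way. Their median distance from the embryo mean was -1.22, -1.54 and -1.08 on serosa replicates 1, 2 and 3. Serosa replicate 2 was the lowest serosa array in 71.3% of them, and serosa replicate 3 was the highest in 57.8%. In both of these sets, which the difference itself defines, serosa replicate 3 was the nearest to the embryo mean. Over all 1707 probe sets at 7.0 or more that were not members it was the farthest, with median distances of -0.44, -0.35 and -0.57 on serosa replicates 1, 2 and 3.

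**Figure D3:**
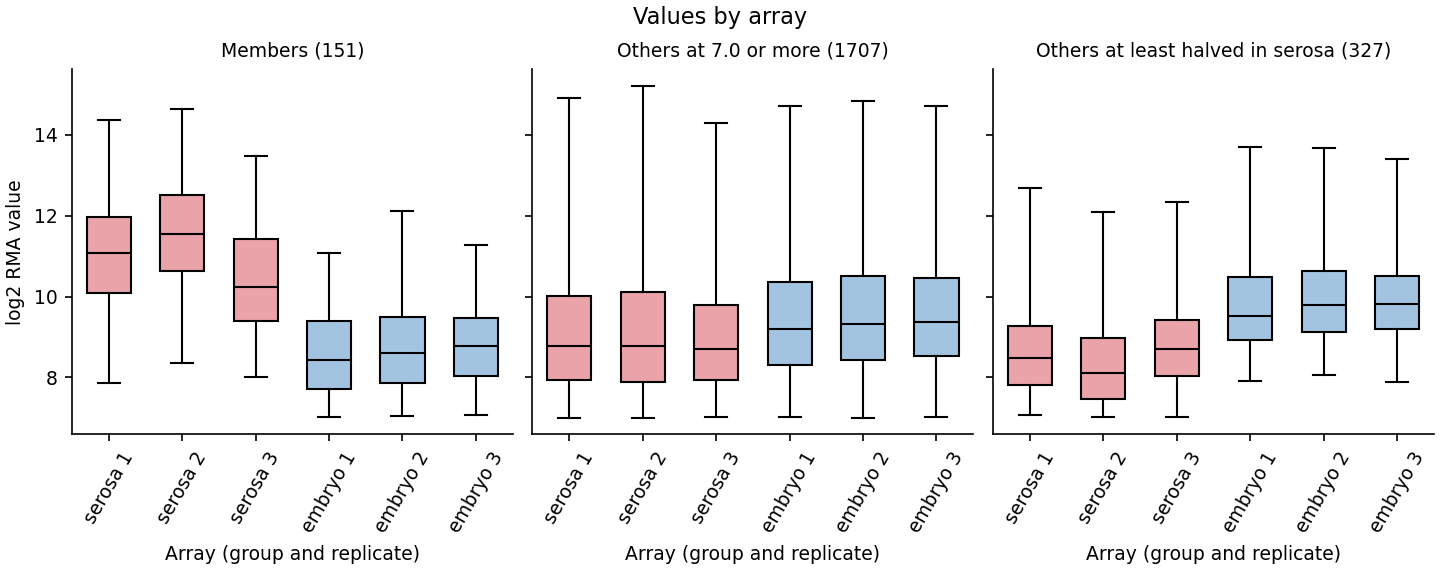
Log2 RMA values (y axis) by array (x axis) for the 151 members, for the 1707 other probe sets at 7.0 or more on all arrays, and for the 327 of these that were at least 2-fold lower in serosa. Boxes span the quartiles, the line is the median and whiskers reach the extremes. The members' medians on the serosa arrays run from 10.22 on replicate 3 to 11.53 on replicate 2, above every embryo median.

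Some control probe sets moved with this order. The 18 hybridization controls measure RNAs spiked into every labelled sample, and they averaged 10.02, 10.82 and 9.56 on serosa replicates 1, 2 and 3 and 9.64, 9.57 and 9.40 on embryo replicates 1, 2 and 3. The actin control probe set at the 3' end exceeded that in the middle of the transcript by 2.70, 3.20 and 2.24 on the serosa arrays and by 2.15, 2.09 and 2.16 on the embryo arrays. Both were highest on serosa replicate 2 and lowest on serosa replicate 3 among the serosa arrays. Measured against the actin probe set at the 5' end, the excess was 8.99, 8.60 and 7.53 on the serosa arrays, highest on replicate 1, and 8.82, 8.14 and 7.76 on the embryo arrays. The human Alu control did not follow the order either, with 11.8, 8.63 and 10.6 on the serosa arrays and 9.72, 6.26 and 5.67 on the embryo arrays. The part of these controls in the order of the serosa arrays was not tested. With the hybridization controls equalised between arrays the members' median difference was 1.42, and with the medians of probe sets of mean 7.0 or more equalised it was 2.30. The median over all Anopheles probe sets under these scalings was -0.59 and 0.29.

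On arrays that took no part in a choice, most chosen probe sets reached 1.0 for replicates 1 and 2 but not for replicate 3. The 2 limits were applied to the arrays of 2 replicate numbers, and the chosen probe sets were measured on the remaining serosa and embryo array. With replicate 1 left out, 160 probe sets were chosen, their median difference on the left-out arrays was 2.34, and 144 (90.0%) reached 1.0 there. With replicate 2 left out, 130 were chosen, the median was 2.79, and 125 (96.2%) reached 1.0. With replicate 3 left out, 219 were chosen, the median was 0.81, and 98 (44.7%) reached 1.0, while 24 were at or under 0. Of all Anopheles probe sets at 7.0 or more on both left-out arrays, 8.74%, 14.5% and 5.26% reached 1.0 in the same order. In all 3 rounds 120 probe sets were chosen, each of them a member by construction. Such a probe set meets the level limit on every array, and its full difference is the average of its differences in the 3 rounds. Nothing is therefore read from their membership. The arrays had been normalized together, so the left-out values are not fully separate from those that made the choice.

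**Figure D4:**
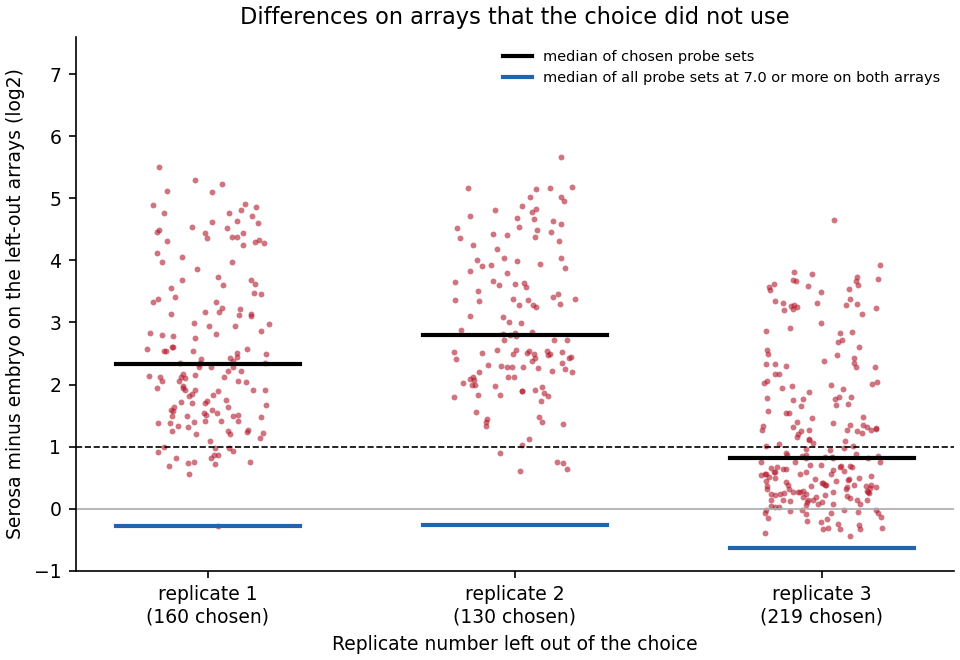
Serosa minus embryo difference (y axis, log2) on the 2 arrays of the replicate number left out of the choice (x axis), 1 point per chosen probe set. Black lines mark the medians of the chosen probe sets (2.34, 2.79 and 0.81), blue lines those of all probe sets at 7.0 or more on both arrays (-0.28, -0.27 and -0.63), and the dashed line a difference of 1.0.

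By the class in their IDs, 58 members (38.4%) were of coding sequence, 48 (31.8%) of UTR and 45 (29.8%) of neither. Among all 1858 probe sets at this level the shares were 51.2%, 19.1% and 29.7%, and over all Anopheles probe sets 83.3%, 4.68% and 12.0%. Members were thus 13.6% of the UTR probe sets at this level and 6.09% of the coding ones. The coding members had the larger differences, with a median of 2.43, compared with 1.69 for UTR members and 1.64 for those of neither class. Of the 6 largest differences 5 were in coding probe sets. The actin excess of the 3' end over the middle, given above, was higher on each serosa array than on any embryo array. The excess over the 5' end overlapped between the groups. The part of such a bias in the share of UTR probe sets was not tested.

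By arm, 46 members were on 2R, 28 on 3L, 27 each on 2L and 3R, 16 on the X and 7 had IDs with UNKN in place of an arm. Members made up 11.8% of the X-linked probe sets at this level, 9.66% on 3L, 8.03% on 2R, 7.36% on 3R, 6.99% on 2L and 6.60% of UNKN. By suffix, 82 members were plain, 51 carried _a_ and 18 carried _s_, shares of 54.3%, 33.8% and 11.9% that compare with 60.1%, 27.2% and 12.4% at this level. For the 18 with _s_, which can take up RNA of more than 1 gene, the source of the signal is uncertain. These shares of classes, arms and suffixes are descriptions, and their differences were not tested.

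A second readout came from coding probe sets that share the whole ID of a UTR member up to the class, a comparison added after the values were seen. Such a partner existed for 41 of the 48 UTR members. In embryo the UTR member had the higher value in 40 of the 41 pairs, with medians of 8.72 for the UTR probe sets and 5.20 for the coding ones and a median gap of 3.16. Only 2 coding partners were at 7.0 or more on all arrays, and 21 averaged in serosa under the 95th percentile of the probe sets with human IDs. Values of different probes also depend on how well each probe binds, so this gap is one of signal and not of RNA amount. UTR probe sets at this level that were not members showed a like gap, with a median of 3.94 over 245 pairs. In both sets the UTR probe set had to be at 7.0 or more on all arrays and the coding one did not. The median gap was 1.97 over all 664 pairs of the array, and 1.40 over the 35 pairs with both probe sets at that level.

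The coding partners were mostly higher in serosa too. The UTR members had been selected for a difference of 1.0 or more and the partners had not, so nothing is read from the smaller difference of the partners. Their difference was above 0 in 39 of 41 pairs and 1.0 or more in 14, with a median of 0.62 and a range of -0.35 to 2.97, where the UTR members had a median of 1.65. The lowest serosa array of the partner exceeded its highest embryo array in 25 pairs. For the 245 non-member pairs the coding difference was above 0 in 89 and 1.0 or more in 1, its median was -0.09, and 15 had no overlap. Over all 664 pairs the coding difference was above 0 in 364 and 1.0 or more in 25, and 102 had no overlap. Pearson's r between UTR and coding differences was 0.50 over the 41 pairs and 0.66 over all 664 pairs on the array. These pairs share the same 6 arrays and the same contrast, and the r values describe probe sets, not replicates.

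Some pairs are given as examples, chosen after their values were seen. Ag.2R.461.0_UTR_a_at averaged 14.03 in serosa and 10.27 in embryo, whereas Ag.2R.461.0_CDS_a_at averaged 6.01 and 4.12 in the same order, so a difference of 3.76 stood beside one of 1.89. Ag.2L.391.0_UTR_at differed by 3.61 and its coding partner by 2.14, at a partner level of 6.89 in serosa and 4.75 in embryo. The differences were close in Ag.2R.550.0, where Ag.2R.550.0_UTR_a_at and Ag.2R.550.0_CDS_a_at differed by 2.98 and 2.97. The 2 members Ag.2R.322.0_UTR_at and Ag.2R.322.0_CDS_at differed by 1.92 and 2.35. Partners of similar embryo value could also part: Ag.2R.463.2_CDS_at, at 7.45 in embryo against 7.43 for Ag.2R.550.0_CDS_a_at, had a difference of -0.35 beside 2.03 for its UTR member. Ag.X.80.0_CDS_a_at, at 8.12 in serosa and 6.89 in embryo, had one of 1.23 beside 2.99.

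**Figure D5:**
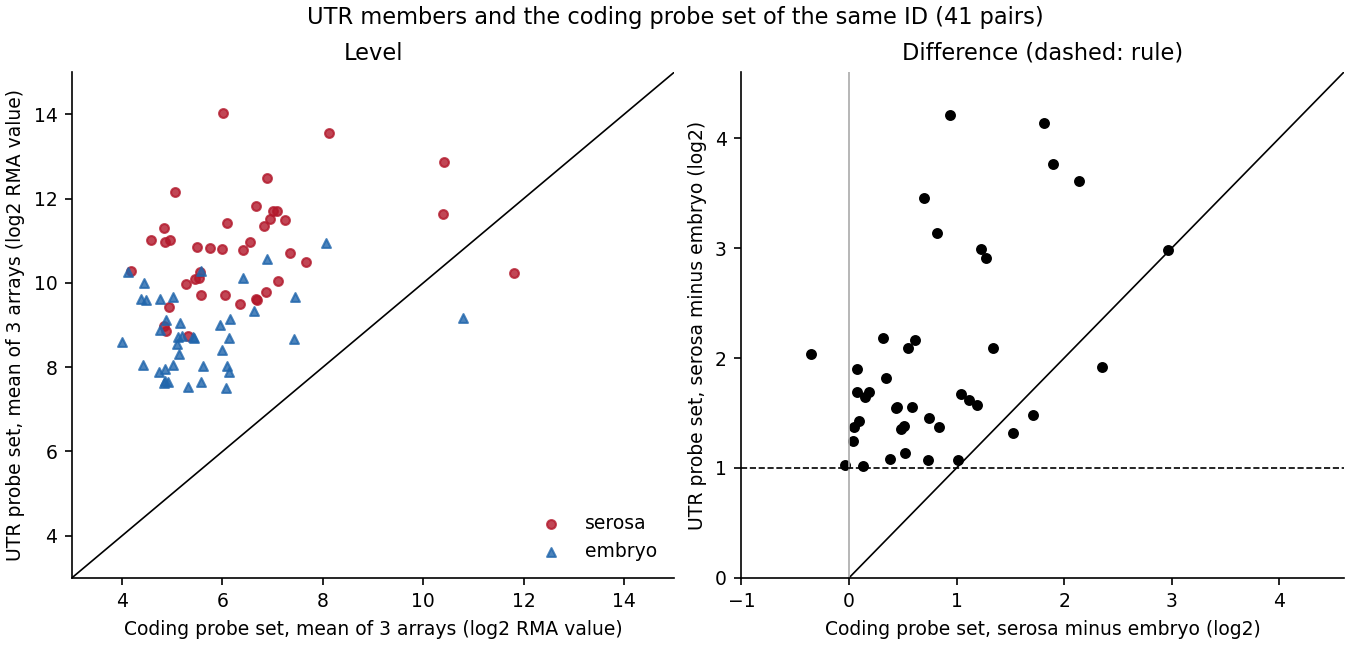
Left, mean log2 RMA value of the 41 UTR members (y axis) against that of the coding probe set with the same ID (x axis), serosa in red and embryo in blue, with a line at equality. Right, the serosa minus embryo difference of the UTR member (y axis) against that of the coding probe set (x axis), with a line at equality, a dashed line at the rule's 1.0 and a grey line at 0, to the right of which 39 of the 41 lie.

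Arm and number were shared more widely. The 151 members fell into 145 combinations of arm and number, of which 76 held a single probe set and 69 held others as well. The sources used here do not say that an arm and number stand for 1 gene. In 6 combinations 2 probe sets were members, and none held more. Of the 85 other probe sets in the 69 combinations, 78 were under 7.0 on at least 1 array. Their difference was above 0 in 77 and 1.0 or more in 22, with a median of 0.50. Over all Anopheles probe sets 3.17% reached 1.0, and the median was 0.01. The coding partners described above that were not members are among these 85, so the 2 comparisons are not separate.

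Of the 4 combinations described here, 2R.463, 2R.289 and 2R.71 held the most probe sets. The fourth, 2R.450, was taken because it had the largest member difference among the combinations with 3 probe sets. Under 2R.450, Ag.2R.450.1_at measured 11.78, 11.91 and 11.97 in serosa and 7.02, 7.40 and 8.26 in embryo, and Ag.2R.450.4_at 14.13, 14.38 and 13.29 in serosa and 10.16, 9.84 and 9.51 in embryo, differences of 4.33 and 4.10. The remaining probe set of this arm and number, which is of class CDS, had similar values in both tissues, 9.16 ± 0.26 in serosa and 8.92 ± 0.50 in embryo (SD, n = 3 each), and differed by 0.24, less than the spread between embryo replicates.

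Under 2R.463 the members Ag.2R.463.0_CDS_a_at and Ag.2R.463.2_UTR_s_at averaged 10.52 ± 0.82 and 11.70 ± 0.95 in serosa against 8.81 ± 0.09 and 9.67 ± 0.07 in embryo. Ag.2R.463.1_CDS_at, under 7.0 in embryo and so no member, had a difference of 2.72, while Ag.2R.463.2_CDS_at had one of -0.35 and Ag.2R.463.3_CDS_at, near background, one of 0.03. Under 2R.289 the member Ag.2R.289.15_CDS_a_at measured 10.19, 10.75 and 9.77 in serosa and 8.93, 8.96 and 7.44 in embryo. Its UTR partner Ag.2R.289.15_UTR_at measured 8.38 ± 0.52 in serosa and 6.18 ± 0.20 in embryo, and differed by 2.19. The other 3, Ag.2R.289.0_CDS_a_at, Ag.2R.289.0_UTR_s_at and Ag.2R.289.16_CDS_at, reached at most 6.23 on any array and differed by 0.50, 0.55 and 0.17.

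Under 2R.71 the single member, Ag.2R.71.2_CDS_at, measured 11.20, 11.47 and 10.74 in serosa and 9.29, 10.10 and 9.41 in embryo. Ag.2R.71.5_s_at differed by 0.53 at a level of 7.39 in serosa and 6.85 in embryo. Ag.2R.71.0_CDS_at and Ag.2R.71.4_CDS_a_at were near background, with differences of 0.12 and -0.21.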

How the data were processed

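Per the labels and the series' design text, RNA from fixed material was amplified in 2 steps, labelled with biotin and measured on Affymetrix Plasmodium-Anopheles arrays. The authors deposited log2 values from RMAExpress, as the series' design text states, with no version given. RMA corrects the background, forces the arrays to 1 distribution and summarises probes into probe sets, so a change in total RNA cannot be read. Precision is limited by the number of arrays.

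From these values, means, SDs and differences were computed in Python 3.11.15 with pandas 2.3.3, and limma 3.58.1 in R 4.3.3 (lmFit and eBayes, group as the only term, tested on simulated data) was fitted to all 16884 Anopheles probe sets, with Benjamini-Hochberg adjustment and a threshold of 0.05. Its p-values measure only the spread between the 3 preparations of each group. The members, their rule and the comparisons were chosen with earlier results of these data known. Named probe sets were the 6 largest and 3 smallest differences, the 4 highest embryo means, the 2 largest serosal SDs, the 2 widest overlaps, 4 combinations of arm and number (most probe sets first, ties by largest member difference), and 2 probe sets just outside each limit. Lists of genes were not used, since no ID was paired with a gene. Replicate numbers were checked for pairing: deviations from the group means correlated with r of 0.32, 0.33 and 0.22 between same-numbered serosa and embryo arrays, so the numbers were taken to pair the samples in a fit that adds the number as a replicate block. What same-numbered samples have in common is not given in the sources used here.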

Additional observations from a re-analysis of the deposited data

How the results depend on the processing

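The rule applied anew chose 107 to 206 probe sets under the alternatives tried. It chose 107 with hybridization controls equalised (98 of them among the 151), 204 with the medians of probe sets of mean 7.0 or more equalised (142) and 165 with Anopheles probe sets quantile normalized by themselves (141). Limits of 6.5 and 7.5 on the level gave 187 and 119, and limits of 0.8 and 1.2 on the difference gave 197 and 127. Leaving out 1 array gave 126 to 206, the most without serosa replicate 3 and the fewest without serosa replicate 2. The limma count of 124 members was 75 to 136 with 1 array left out, beside 1.85% to 4.04% of all Anopheles probe sets. It was 87 to 150 under the other settings, beside 1.85% (87 members, hybridization controls equalised) to 12.9% of the probe sets tested. The 150 came with the medians equalised, where 12.3% of all were called. The fit with a replicate block called 137, beside 4.44%. The members' median difference was 1.42 to 2.34 over all settings. No overlap between groups was found in 125 members with hybridization controls equalised, beside 2.60% of all Anopheles probe sets, in 151 with the medians equalised, beside 43.1%, and in 143 to 150 otherwise, beside 12.9% to 19.6%. Among the named probe sets, 1 reversed: Ag.2R.289.0_CDS_a_at, which is no member, had a difference of -0.10 with hybridization controls equalised; that scaling lowers all differences by the same amount. None of the 23 named members reached 0 or less under any setting, but the rule had chosen them for a difference of 1.0 or more, so nothing is read from this. Of 486 comparisons of named probe sets with an alternative setting, 60 lost the limma call with the direction kept, and 17 gained it.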

Other observations

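Outside the Anopheles probe sets, 66 of the 5877 other probe sets of the array were at 7.0 or more on all 6 arrays, and 0 of these also had a mean serosa minus embryo difference of 1.0 or more.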
